A study of Mus musculus with 12 samples.

Results

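Respiratory complex I (NADH:ubiquinone oxidoreductase) was followed through its nuclear-encoded genes, chosen from the deposited table by a symbol that starts with Nduf. The analysis covered 44 of its 10126 genes, and all 44 passed the filter on low counts in total RNA and in ribosome protected fragments (RPFs). Of these, 35 encode subunits of complex I and 8 are assembly factors of the Ndufaf series. Ndufa4, which is assigned to complex IV today, is described apart. A further 5 genes of the count files carry an Nduf symbol but are outside the table, namely Ndufa4l2 and the pseudogenes Ndufa11b, Ndufab1-ps, Ndufb4c and Ndufs6b, and none of them exceeded 10 counts in any library. Ndufb1 was not analysed here.

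The libraries came from naive CD4 T cells of lymph nodes of female mice, activated for 20 h on plates coated with anti-CD3 (5 ug/ml) and anti-CD28 (1 ug/ml), and incubated with cycloheximide for 1 min before lysis. Control mice were Rnmt fl/fl CD4cre - and Rnmt cKO mice were Rnmt fl/fl CD4cre +, so both carried the floxed Rnmt allele and differed in the Cre transgene. The loxP sites flank exon 3 of Rnmt, and CD4-Cre acts in all cells that pass through the CD4+ CD8+ stage of the thymus, so that the deletion precedes activation and is not restricted to CD4 T cells of the lymph node. Rnmt encodes the methyltransferase that completes the cap guanosine of RNA polymerase II transcripts. Total cytoplasmic RNA and RPFs were each sequenced from 3 control and 3 Rnmt cKO samples. Between 15079703 and 22629563 reads were counted on genes per total RNA library and between 4123271 and 10661356 per RPF library, the lowest being Rnmt cKO replicate 3. All values are relative to the other reads of a library, so the amount of RNA per cell is not measured, and fewer cells of a type and less RNA per cell cannot be told apart. The labels do not say whether replicates were separate mice or separate cultures, and p-values measure the spread between these samples.

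Complex I is the largest complex of the respiratory chain. Its matrix arm oxidises NADH through a flavin and a chain of iron-sulfur clusters, and passes the electrons to ubiquinone at the junction with the membrane arm, which pumps protons. The core of the matrix arm is encoded in the nucleus and the core of the membrane arm in mitochondrial DNA, and accessory subunits surround both. Naive T cells rely on respiration, and mitochondrial mass and respiratory capacity are known to grow when T cells are activated. The nuclear-encoded core subunits analysed were the 6 genes Ndufs1, Ndufs3, Ndufs7, Ndufs8, Ndufv1 and Ndufv2. The accessory subunits were grouped into 9 of the matrix arm, 9 of the proximal membrane arm next to the junction, and 11 of the distal membrane arm.

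The Rnmt transcript was at 95.5, 94.1 and 94.3 CPM (counts scaled to a common library size, with TMM within each kind of library) in the control total RNA libraries and at 29.3, 32.4 and 30.4 CPM in those of Rnmt cKO. In RPF it was at 104, 87.9 and 98.9 CPM in controls and at 10.5, 10.4 and 9.60 CPM in Rnmt cKO. All 12 libraries therefore followed their labels. All 8 CD4 T cell markers examined (Cd4, Cd3d, Cd3e, Cd3g, Cd5, Cd28, Lck and Thy1) were detected in every library, with a summed level of 3150 to 3440 CPM in control and 2377 to 2717 CPM in Rnmt cKO total RNA. The activation markers Il2ra and Cd69 together were at 348 to 412 CPM in control and at 629 to 713 CPM in Rnmt cKO total RNA. Myeloid markers summed to 0.106 to 0.371 CPM in control and 0.464 to 1.02 CPM in Rnmt cKO total RNA.

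Markers of B cells differed between the libraries. The 6 genes examined (Cd79a, Cd79b, Ms4a1, Pax5, Ebf1 and Cd22) summed to 7.64, 5.08 and 27.7 CPM in the control total RNA libraries and to 73.0, 94.7 and 16.1 CPM in Rnmt cKO replicates 1, 2 and 3. The most abundant of them was Ms4a1, with up to 41.1 CPM in total RNA. In Rnmt cKO replicate 3 the sum lay within the range of the controls, whereas replicates 1 and 2 lay above it, and the RPF sum of replicate 3 likewise lay within the range of the controls. Markers of NK cells (Ncr1, Klrb1c, Klrd1 and Gzma) summed to 3.28 to 4.37 CPM in control and to 4.71 to 10.6 CPM in Rnmt cKO total RNA, so that every Rnmt cKO library was above every control. The cytotoxic granule gene Gzma had the largest difference of these, with means of 0.267 and 3.37 CPM, and Ncr1 had means of 0.0707 and 0.494 CPM, while Klrd1, the most abundant of them in controls, had 3.31 and 2.53 CPM. In RPF the NK sums of the genotypes overlapped (2.56 to 7.48 and 7.38 to 21.7 CPM). Markers of CD8 T cells summed to 21.4 to 41.7 CPM in control and to 9.85 to 26.4 CPM in Rnmt cKO. The authors purified the cells for ribosome footprinting with an isolation kit for naive CD4 T cells of the mouse. The part of B, NK and CD8 T cells in the results was not tested.

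Most complex I subunits were abundant mRNAs in activated control cells. Over the 35 subunits the median level in total RNA was 75.4 CPM per kb of transcript, which lay at the 91.6th percentile of 10055 genes, and 34 were above the median of all genes (12.2 CPM per kb). In RPF the median was 278 CPM per kb of coding sequence, at the 93.8th percentile. Ndufc2, a small subunit of the proximal membrane arm, had the highest total RNA level of the subunits with 210 ± 7.77 CPM per kb (SD, n = 3), and Ndufa3 the highest RPF level with 804 ± 92.4 CPM per kb. Ndufa1 followed with 747 ± 34.2 CPM per kb in RPF, and these neighbours differed by less than the SD of Ndufa3. Ndufa4 was above them all, with 362 ± 22.5 CPM per kb in total RNA and 2036 ± 141 in RPF. At the lower end, Ndufb4 was at 5.88 ± 0.825 CPM per kb in total RNA and at 5.11 ± 0.696 in RPF, and Ndufab1 was at 13.5 ± 3.26 and 21.4 ± 0.670. Ndufs5, another low one, was at 14.3 ± 1.01 and 43.0 ± 9.15 CPM per kb. Reads that aligned in more than one place were not counted, and for Ndufab1 and Ndufb4 the annotation holds pseudogenes named after them, listed above, so these low levels are uncertain.

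The ratio of RPF to total RNA, each per kb, describes how densely an mRNA was occupied relative to other mRNAs. Its median over the subunits was 1.59 on the log2 scale in controls, beside 1.17 over all genes, and 28 of 35 subunits lay above the median of all genes. The subunits differed among themselves from -0.20 for Ndufb4 to 2.85 for Ndufc1. These ratios depend on the lengths of the 1 transcript used per gene, which for Ndufc1 were 1249 bases of transcript and 228 of coding sequence. Without the lengths, its log2 ratio of RPF to total CPM was 0.74, -0.011 and 0.37 in the control libraries. That of Ndufa8 was 1.87, 1.92 and 1.66, so the top place of Ndufc1 rests on the lengths. Among the core subunits, Ndufs8 (2.16), Ndufv2 (2.10), Ndufs7 (1.82) and Ndufs3 (1.43) were above the median of all genes, and Ndufv1 (0.88) and Ndufs1 (0.91) were below it. Assembly factors were lower in level, with total RNA between 6.44 CPM per kb for Ndufaf3 and 32.2 CPM per kb for Ndufaf2.

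**Figure D1:**
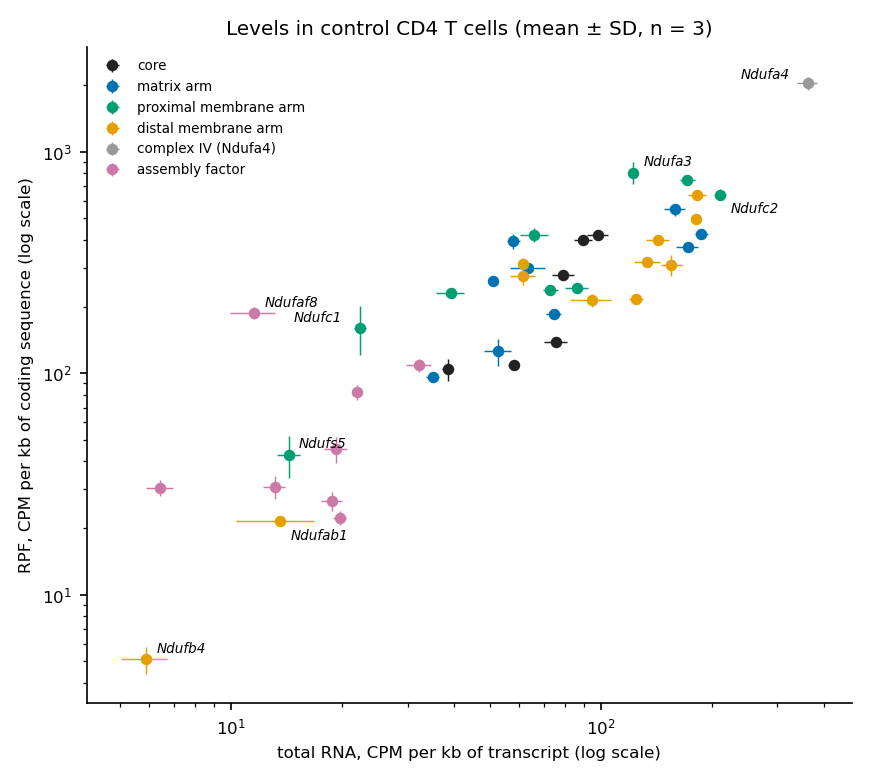
Level of each Nduf gene in control CD4 T cells, as CPM per kb of transcript in total RNA (x axis, log scale) against CPM per kb of coding sequence in RPF (y axis, log scale), with the mean and SD of 3 libraries and colours for the roles. The subunits cluster at high levels in both kinds of library, with Ndufb4, Ndufab1 and Ndufs5 apart at the lower left and Ndufa4 at the upper right.

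The promoters of these genes are shown because the cap is placed on the base at the transcription start, and because nuclear respiratory genes are known targets of NRF1 and of the ETS factor GABP. RefSeq promoters (GRCm38.p6, 250 bases before and 50 after the annotated start) were matched for 32 subunits and 7 Ndufaf genes. The windows of the 3 subunits with the largest decreases in total RNA, and of the subunits with the largest decrease and the only increase in RPF, are given with the annotated start base in capitals, and for Ndufb11 also the 4 pyrimidines that follow it. Ndufa6 lies at chr15:82354277-82354306 (minus strand), Ndufv3 at chr17:31520100-31520129 (plus strand), Ndufv2 at chr17:66101545-66101574 (minus strand), Ndufb11 at chrX:20617605-20617634 (minus strand) and Ndufab1 at chr7:122101834-122101863 (minus strand).
Ndufa6: tgcactgcaggaggcAcggcagcgagtccc
Ndufv3: ggtccaccatggtgtGcgattggtgaacgt
Ndufv2: gcgcgcgcgccgtgcGtcctgggcgcgggg
Ndufb11: cccctaagaggcccgCTCTTtagaagcttg
Ndufab1: gcgggaggctgcggcGcagtgcatcctggg

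A C at the annotated start followed by 4 pyrimidines, the pattern of terminal oligopyrimidine mRNAs, was found in Ndufb11 and in no other of the 32 subunits (3.13%), beside 2.51% of 32851 promoters. G was the annotated first base of 20 of the 32 subunits (62.5%), A of 7, C of 3 and T of 2, beside 35.6% with G over all promoters and 48.5% over 8132 promoters of genes tested for TE. The annotated start of Ndufa6 differs by 31 bases and that of Ndufab1 by 38 bases from the gene end in GENCODE vM21, so the first base of the mRNA in these cells is not known from it. The NRF1 core CGCATGCG, which is its own reverse complement, was found in 2 of 32 subunit promoters (6.25%) and in 2 of 7 Ndufaf promoters, beside 1.87% of all promoters and 4.51% of those tested for TE. CCGGAAG, an ETS motif searched on both strands, was found in 4 of 32 (12.5%), beside 8.86% and 21.3%. The 3 windows that follow hold the NRF1 core in capitals. Ndufa8 lies at chr2:36049329-36049358 (minus strand), Ndufa11 at chr17:56717692-56717721 (plus strand) and Ndufaf4 at chr4:24897960-24897989 (plus strand).
Ndufa8: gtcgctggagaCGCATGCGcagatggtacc
Ndufa11: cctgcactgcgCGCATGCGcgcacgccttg
Ndufaf4: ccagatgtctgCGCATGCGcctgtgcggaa

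In total RNA the complex I subunits were lower in Rnmt cKO cells. Of 35 subunits, 20 decreased and 0 increased (edgeR quasi-likelihood test, Benjamini-Hochberg adjusted p under 0.05), while 28.0% of all 11519 genes tested decreased and 26.3% increased. No subunit increased at an unadjusted p under 0.05 or in DESeq2 either, and 1 did in edgeR without control replicate 3. The median log2 fold change of the subunits was -0.23 (range -0.93 to 0.21), beside -0.0037 over all genes, and 31 of 35 were below 0. In 20 subunits every Rnmt cKO library was below every control library and in 0 above, beside 32.3% and 30.0% of all genes. The decreases were found in all parts of the complex, with 4 of 6 core subunits, 6 of 9 of the matrix arm, 5 of 9 of the proximal and 5 of 11 of the distal membrane arm. Ndufa4 decreased as well, with a log2 fold change of -0.25 ± 0.080 (SE, adjusted p = 0.0295), a call that was lost without TMM, with the replicate block and without replicate 1 or 2 of either genotype (adjusted p 0.0651 to 0.0988).

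**Figure D2:**
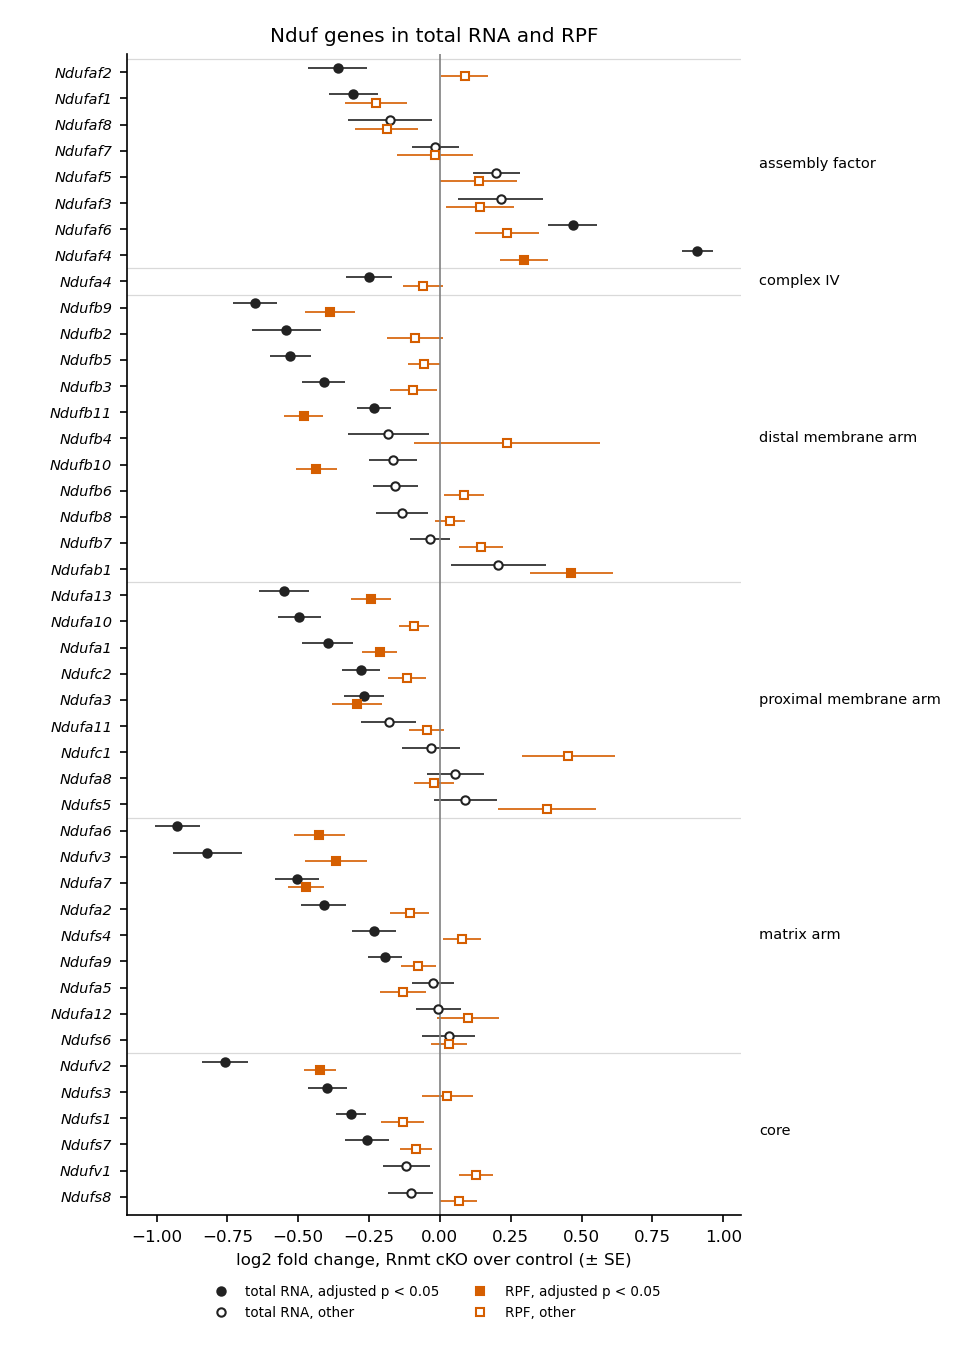
Log2 fold change of Rnmt cKO over control with its standard error (x axis) for each of the 44 Nduf genes (y axis), in total RNA (black circles) and RPF (orange squares), with symbols filled where the adjusted p was under 0.05. In total RNA 20 subunits are filled to the left of 0 and none to the right, and in RPF 10 are filled to the left and 1 to the right.

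The size of the decrease differed between the Rnmt cKO libraries. The median log2 difference of the 35 subunits from the control mean was -0.29 in replicate 1, -0.30 in replicate 2 and -0.15 in replicate 3. Replicates 1 and 2, where the B cell markers were high, therefore showed the larger decreases. In replicate 3, whose B cell marker sum lay within the range of the controls, 20 of 35 subunits were below all 3 control libraries and 5 were above them all, beside 42.2% and 38.2% of all genes in that library. Without replicate 1 the edgeR test called 15 decreased subunits, without replicate 2 it called 17, and without replicate 3 it called 23, beside 23.5%, 25.5% and 27.9% of all genes. The part of B cells in the result was not tested further.

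The core subunits that bind the flavin and the first iron-sulfur clusters differed among themselves. Ndufv2, which carries an iron-sulfur cluster at the NADH-oxidising end, was at 175, 171 and 154 CPM in control total RNA and at 101, 89.1 and 105 CPM in Rnmt cKO. The groups did not overlap, and the level fell by 0.76 ± 0.079 on the log2 scale (adjusted p = 0.00016), to 0.591 of control. Its partner Ndufv1, which binds the flavin and NADH, was at 129, 132 and 115 CPM in control and at 114, 106 and 126 CPM in Rnmt cKO. These groups overlapped and the difference did not pass the threshold (log2 fold change -0.12 ± 0.083, adjusted p = 0.256). Ndufs1, the largest subunit of the complex, was at 149, 156 and 146 CPM in control and at 117, 122 and 124 CPM in Rnmt cKO (-0.31 ± 0.053, adjusted p = 0.00169).

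Ndufs7, which carries the last iron-sulfur cluster of the chain and takes part in the pocket for ubiquinone, was at 64.5, 57.4 and 57.5 CPM in control total RNA and at 47.5, 48.7 and 53.8 CPM in Rnmt cKO (log2 fold change -0.26 ± 0.078, adjusted p = 0.0237). It was lower in every Rnmt cKO library than in any control, but the call was lost without TMM (adjusted p = 0.0637), with the replicate block (0.0681) and without control replicate 1 (0.0936), Rnmt cKO replicate 1 (0.118) or Rnmt cKO replicate 2 (0.0752). Ndufs3, a core subunit of the same arm that carries no cluster, was at 39.4, 41.9 and 39.5 CPM in control and at 31.7, 31.1 and 29.0 CPM in Rnmt cKO (-0.40 ± 0.070, adjusted p = 0.002). Ndufs8, which carries iron-sulfur clusters of the chain, was at 93.3, 87.0 and 83.6 CPM in control and at 80.0, 75.9 and 89.6 CPM in Rnmt cKO, and these groups overlapped (-0.10 ± 0.078, adjusted p = 0.29).

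The largest decrease among all members was that of Ndufa6, an accessory subunit of the matrix arm and member of the LYR protein family, which anchors an acyl carrier protein to the complex. It was at 109, 98.0 and 96.2 CPM in control total RNA and at 54.4, 48.6 and 56.6 CPM in Rnmt cKO. The log2 fold change was -0.93 ± 0.080 (adjusted p = 6.66e-05), or 0.526 of control, with no overlap of the groups. Ndufv3, a subunit next to the flavoprotein, was at 84.4, 89.7 and 75.7 CPM in control and at 46.5, 39.6 and 55.2 CPM in Rnmt cKO (-0.82 ± 0.12, adjusted p = 0.00086). Both genes, together with Ndufv2, make up the 3 largest decreases, and all 3 belong to the matrix arm. In the same arm Ndufa5, Ndufa12 and Ndufs6 had log2 fold changes between -0.024 and 0.031, and none of them passed the threshold.

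In the proximal membrane arm the log2 fold changes in total RNA ran from -0.55 for Ndufa13, also known as GRIM-19, to 0.090 for Ndufs5. In the distal membrane arm they ran from -0.65 for Ndufb9, another LYR protein, to 0.21 for Ndufab1, the mitochondrial acyl carrier protein that is held by Ndufa6 and Ndufb9. Ndufab1 was at 18.6, 14.9 and 24.0 CPM in control and at 22.9, 23.8 and 19.7 CPM in Rnmt cKO, so its groups overlapped (adjusted p = 0.326), while both of its LYR partners decreased. Across the 35 subunits the log2 fold change in total RNA had a Spearman correlation of -0.39 with the total RNA level and of -0.13 with coding length. The level here was the average log2 CPM over control and Rnmt cKO libraries, not per kb. Both values are a description over genes that share the same libraries.

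Of the 8 Ndufaf assembly factors 2 decreased and 2 increased in total RNA (25% each), close to the 28.0% and 26.3% of all genes, and their median log2 fold change was 0.091. Ndufaf4, which acts in the early assembly of the matrix arm, was at 80.9, 78.6 and 78.9 CPM in control and at 142, 152 and 154 CPM in Rnmt cKO. Its level rose 1.88-fold (log2 fold change 0.91 ± 0.055, adjusted p = 1.63e-05), and each Rnmt cKO library was far above the range of the controls. Ndufaf6, needed for the assembly of the mitochondrially encoded part, was at 18.9, 21.6 and 20.3 CPM in control and at 26.5, 27.6 and 30.1 CPM in Rnmt cKO (0.47 ± 0.086, adjusted p = 0.00248). Ndufaf1 (-0.31 ± 0.086, adjusted p = 0.0178) and Ndufaf2 (-0.36 ± 0.10, adjusted p = 0.0181) decreased. Both calls were lost without control replicate 2 (adjusted p = 0.0521 and 0.0672) or Rnmt cKO replicate 2 (0.0627 and 0.0564), that of Ndufaf1 also without control replicate 3 (0.0572) or Rnmt cKO replicate 1 (0.0722), and that of Ndufaf2 also with the replicate block (0.0604). Ndufaf2 is a relative of the subunit Ndufa12, whose log2 fold change was -0.0057.

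In RPF fewer subunits passed the threshold than in total RNA. Of 35 subunits, 10 decreased and 1 increased, beside 15.7% and 14.1% of all 11428 genes tested in RPF. The median log2 fold change was -0.084 (range -0.48 to 0.46), beside 0.0080 over all genes, and 22 of 35 were below 0. When replicate 2 or 3 of Rnmt cKO or replicate 3 of the controls was left out, 6 subunits decreased (17.1%). Over all genes 11.3%, 13.6% and 12.7% decreased in these fits. Every Rnmt cKO library was below every control library in 11 subunits and above in 2, beside 24.3% and 22.2% of all genes. The medians of the 3 Rnmt cKO libraries were close to each other in RPF, at -0.069, -0.056 and -0.084 from the control mean.

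The largest RPF decreases were those of Ndufb11, Ndufa7 and Ndufb10. Ndufb11, a distal membrane arm subunit encoded on the X chromosome and the one with the pyrimidine start shown above, was at 149, 141 and 131 CPM in control RPF and at 99.6, 99.2 and 104 CPM in Rnmt cKO. The log2 fold change was -0.48 ± 0.068 (adjusted p = 0.00158). In total RNA Ndufb11 was at 54.8, 56.4 and 56.5 CPM in control and at 48.2, 45.5 and 49.0 CPM in Rnmt cKO, a smaller decrease (-0.23 ± 0.061, adjusted p = 0.0123, and 0.0543 without Rnmt cKO replicate 1). The difference between both changes did not pass the threshold (TE log2 fold change -0.25 ± 0.086, adjusted p = 0.0897).

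Ndufa7, an accessory subunit of the matrix arm, was at 140, 149 and 141 CPM in control RPF and at 97.7, 106 and 107 CPM in Rnmt cKO (-0.47 ± 0.065, adjusted p = 0.00137). Its decrease in total RNA was nearly as large (-0.50 ± 0.079, adjusted p = 0.00107). Ndufb10, another subunit of the distal membrane arm, was at 117, 108 and 116 CPM in control RPF and at 78.3, 89.3 and 85.4 CPM in Rnmt cKO (-0.44 ± 0.073, adjusted p = 0.00352). It was the single subunit that decreased in RPF without passing the threshold in total RNA, where it was at 94.8, 91.6 and 86.9 CPM in control and at 78.2, 74.0 and 91.4 CPM in Rnmt cKO (-0.16 ± 0.086, adjusted p = 0.137, and 0.0145 without Rnmt cKO replicate 3).

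Of the 6 core subunits 1, Ndufv2, decreased in RPF (16.7%), close to the 15.7% of all genes. It was at 305, 329 and 307 CPM in control and at 233, 231 and 237 CPM in Rnmt cKO (-0.42 ± 0.056, adjusted p = 0.0012). The other 5 had RPF log2 fold changes between -0.13 for Ndufs1 and 0.13 for Ndufv1, with adjusted p from 0.146 to 0.85. The LYR protein Ndufa6 was at 144, 148 and 143 CPM in control RPF and at 95.7, 107 and 123 CPM in Rnmt cKO (-0.43 ± 0.089, adjusted p = 0.00899). Ndufv3 was at 190, 147 and 191 CPM in control and at 150, 129 and 131 CPM in Rnmt cKO, where control replicate 2 lay within the range of the Rnmt cKO libraries although the decrease passed the threshold (-0.37 ± 0.11, adjusted p = 0.0368). This call was lost without TMM (0.0605) and when control replicate 1 or 3 (both 0.104), Rnmt cKO replicate 2 (0.117) or Rnmt cKO replicate 3 (0.084) was left out.

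The acyl carrier protein gene Ndufab1 was the single subunit whose RPFs passed the threshold for an increase. Its values were 9.67, 10.3 and 10.2 CPM in control and 13.0, 13.1 and 15.7 CPM in Rnmt cKO (log2 fold change 0.46 ± 0.15, adjusted p = 0.0444). These values rest on 64 to 134 counts per library, and the call was lost in each of the 6 fits that left out a replicate, in DESeq2 (adjusted p = 0.146), with no filter, with counts of both strands and with the replicate block (adjusted p = 0.0661). The annotation also holds a pseudogene named after it, as given above. Ndufc1, a small subunit of the proximal membrane arm that was chosen after its values were seen, had nearly the same RPF change. It was at 46.5, 28.6 and 34.6 CPM in control and at 53.7, 46.2 and 51.4 CPM in Rnmt cKO, with control replicate 1 within the range of Rnmt cKO (0.45 ± 0.17, adjusted p = 0.0707), and it passed the threshold in DESeq2 (0.0316), with no filter (0.00449), with the replicate block (0.0235) and without control replicate 1 (0.0114). RPFs of Ndufaf4 increased too, from 43.7, 38.7 and 45.1 CPM to 53.9, 51.2 and 51.7 CPM (0.30 ± 0.086, adjusted p = 0.0319), a call that was lost in DESeq2 (0.0785), with no filter (0.129) and in each fit without a replicate (0.0575 to 0.0947) but that without control replicate 3. Those of Ndufaf6 did not pass the threshold (0.24 ± 0.11, adjusted p = 0.151). Of the 8 Ndufaf genes 0 decreased in RPF in edgeR, at an adjusted or an unadjusted p under 0.05, and 0 in DESeq2, beside 15.7% of all genes, and Ndufaf1 decreased without control replicate 2 (adjusted p = 0.0402).

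**Figure D3:**
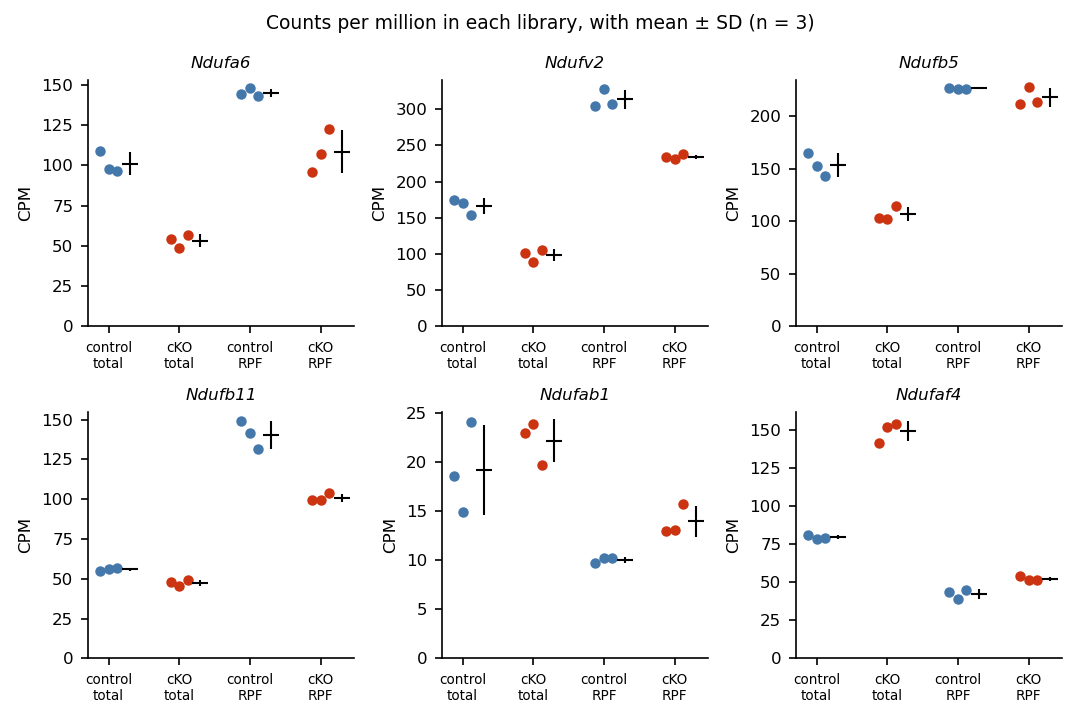
CPM (y axis, from 0) of 6 Nduf genes in each library of control (blue) and Rnmt cKO (red) total RNA and RPF, with the mean and SD of 3 libraries beside the points. Ndufa6 and Ndufv2 are lower in Rnmt cKO in both kinds of library, Ndufb5 in total RNA while its RPF groups overlap, Ndufb11 mostly in RPF, and Ndufaf4 is higher in both.

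The relation between total RNA and RPF was described by translation efficiency (TE), the change in RPF beyond the change in total RNA, fitted as the interaction of genotype and kind of library. A decrease in total RNA enters this value with the opposite sign, so the TE and total RNA values of a gene are linked. Of 35 subunits, 0 decreased and 4 increased in TE (Ndufa6, Ndufb5, Ndufs3 and Ndufa10), beside 6.57% and 3.24% of 10668 genes tested. At an unadjusted p under 0.05, 2 subunits (Ndufb10 and Ndufb11) decreased in TE, and in DESeq2 0 did. The median TE log2 fold change was 0.24, beside 0.035 over all genes, and the RPF fold change was above that of total RNA in 30 of 35 subunits, beside 54.6% of all genes. Per Rnmt cKO library the median was 0.25, 0.30 and 0.12. The count of increases was 0 when control replicate 1 was left out, 1 when control replicate 2 or Rnmt cKO replicate 2 was, and 2 when Rnmt cKO replicate 1 was, and over all genes it fell from 346 to 125, 122, 173 and 136 in these fits. The median over the subunits stayed between 0.18 and 0.28 when any replicate was left out. With a block for the total RNA and RPF library of the same number, which deviated together, 5 subunits increased, Ndufv2 being added (adjusted p = 0.0412). DESeq2 also gave 5, again with Ndufv2 (0.0420), and counts of both strands gave 5, with Ndufb2 (0.0394). With no filter 3 increased. Over all genes 3.99% increased with the block, 3.71% in DESeq2, 3.19% with both strands and 0.920% with no filter.

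Ndufb5, a subunit of the distal membrane arm, had the lowest adjusted p of these. In total RNA it was at 165, 153 and 143 CPM in control and at 103, 102 and 114 CPM in Rnmt cKO (-0.53 ± 0.073, adjusted p = 0.000606), and in RPF at 227, 226 and 226 CPM and at 212, 228 and 214 CPM (-0.055 ± 0.056, adjusted p = 0.483). Its log2 ratio of RPF to total CPM was 0.46, 0.56 and 0.66 in control and 1.04, 1.15 and 0.90 in Rnmt cKO, without overlap, and TE rose by 0.47 ± 0.095 on the log2 scale (adjusted p = 0.00688, and 0.0516 without control replicate 1). Ndufs3 had RPF values of 84.0, 72.2 and 90.0 CPM in control and 83.6, 81.2 and 86.4 CPM in Rnmt cKO, with overlapping groups, and its TE rose by 0.42 ± 0.11 (adjusted p = 0.0328), a call that was lost with no filter and in each fit without a replicate (adjusted p 0.0655 to 0.128) but that without control replicate 3. For Ndufa6, which decreased in both kinds of library, TE rose by 0.50 ± 0.12 (adjusted p = 0.0241), and the call was lost when any control replicate (0.0597 to 0.131) or Rnmt cKO replicate 2 (0.0882) was left out. Ndufa10, a subunit related to nucleoside kinases, was outside the rule for named genes and was chosen after its values were seen, and its TE rose by 0.40 ± 0.098 (adjusted p = 0.0198), a call that was lost without replicate 1 or 2 of either genotype (0.0733 to 0.119).

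In the opposite direction, TE of Ndufaf4 fell by 0.61 ± 0.092 on the log2 scale (adjusted p = 0.000961), to 0.654 of control. Its log2 ratio of RPF to total CPM was -0.89, -1.02 and -0.81 in control and -1.39, -1.57 and -1.57 in Rnmt cKO. The rise of its RPFs was thus smaller than that of its RNA in all 3 libraries. Of the other 7 Ndufaf genes 0 passed the threshold in TE in edgeR with the CPM filter and no block. Ndufaf2 was next to it with 0.45 ± 0.13 (adjusted p = 0.0515). With the block for total RNA and RPF libraries of the same number Ndufaf2 increased (adjusted p = 0.0348), as it did with a minimum of 10 counts (0.0483) and in DESeq2 (0.0495). It was the 1 Ndufaf gene with an increase at an unadjusted p under 0.05.

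Taking the 3 tests of the subunits side by side, 8 decreased in both total RNA and RPF with no call in TE, and 1 (Ndufa6) decreased in both and rose in TE. A further 8 decreased in total RNA alone, and 3 decreased in total RNA and rose in TE. Thus 9 of the 20 subunits that decreased in total RNA also decreased in RPF (45.0%), which was close to the 44.4% of all 3089 genes that decreased in total RNA and were tested in both. For 13 subunits no test passed the threshold. Over the 35 subunits the log2 fold changes in total RNA and RPF had a Spearman correlation of 0.69, as a description across genes of matched libraries.

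**Figure D4:**
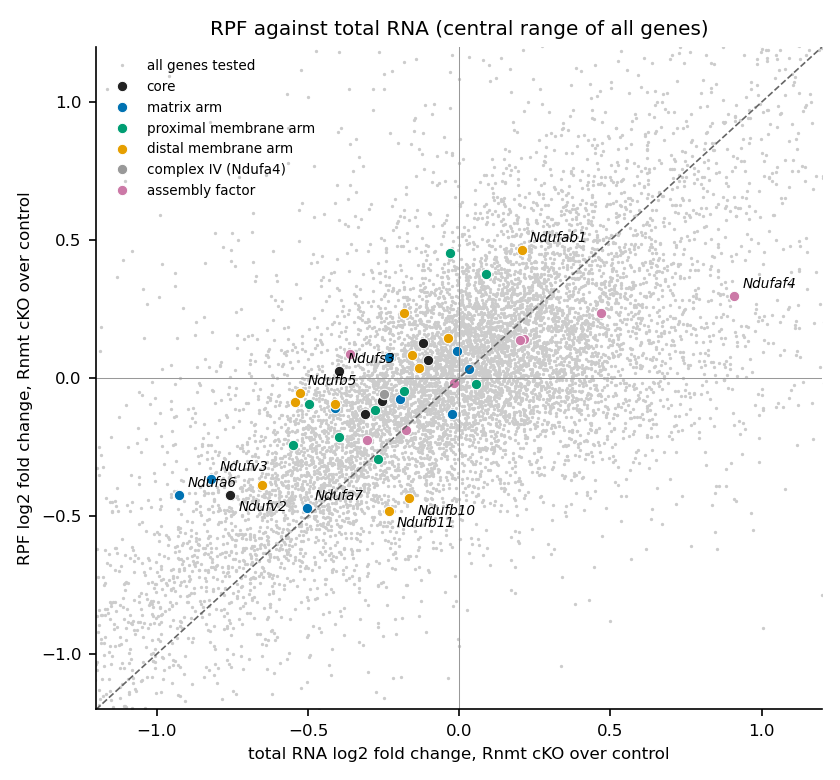
RPF log2 fold change (y axis) against total RNA log2 fold change (x axis), Rnmt cKO over control, for the 44 Nduf genes in colours by role and for all genes tested in grey, with equal changes on the dashed line. Of the 35 subunits 30 lie above the dashed line, and Ndufaf4 lies at 0.91 and 0.30, well below it.

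The weight of the complex in a library was taken as the share of protein-coding counts on the 35 subunits. Protein-coding counts were those on the protein-coding genes of the deposited table, not of all genes counted. In total RNA it was 0.405, 0.394 and 0.371% in control and 0.302, 0.282 and 0.331% in Rnmt cKO, with means of 0.39 ± 0.0173% and 0.305 ± 0.0246% (SD, n = 3). The groups did not overlap, the log2 difference was -0.36, and the two-sided exact permutation test gave p = 0.1, the smallest that 3 against 3 allows. In RPF the share was 0.572, 0.568 and 0.564% in control and 0.533, 0.531 and 0.541% in Rnmt cKO (log2 difference -0.086, exact p = 0.1), so that the difference was smaller but the groups again did not overlap.

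The nuclear-encoded subunits were also set against those of the same complex encoded in mitochondrial DNA, whose transcripts carry no cap. In total RNA the ratio of summed counts was 1.83, 2.15 and 1.66 in control and 1.22, 1.26 and 1.62 in Rnmt cKO (means 1.88 ± 0.248 and 1.37 ± 0.221, log2 difference -0.46, exact p = 0.1). Rnmt cKO replicate 3 was just below the lowest control. In RPF the ratio was 7.06, 6.79 and 7.31 in control and 6.89, 7.04 and 4.14 in Rnmt cKO, where replicate 3, the shallowest library, stood apart and the groups overlapped (log2 difference -0.27, exact p = 0.4). Without this replicate the log2 difference in RPF was -0.018. Of the mitochondrially encoded subunits mt-Nd4l had 0 counts in every library and 1 of the other 6 passed the threshold in total RNA, beside 28.0% of all genes that decreased and 26.3% that increased. This was mt-Nd3, with 119 to 269 counts in control and 71 to 135 in Rnmt cKO total RNA (log2 fold change -1.16 ± 0.29, adjusted p = 0.00994), while the other 5 had log2 fold changes of 0.044 to 0.59. In RPF mt-Nd3 had overlapping groups and a log2 fold change of 1.05 ± 0.61 (adjusted p = 0.225, and 1.38e-07 with no filter). Its TE log2 fold change was 2.20 ± 0.75 (adjusted p = 0.0851, and 0.0329 with the replicate block). Without Rnmt cKO replicate 3, mt-Nd2, mt-Nd4, mt-Nd5 and mt-Nd6 increased in total RNA (adjusted p 0.0169 to 0.0361). There mt-Nd4 (0.0483) and mt-Nd5 (0.0279) also did in DESeq2. With no filter mt-Nd4 (0.000564), mt-Nd5 (5.64e-06) and mt-Nd6 (3.01e-07) increased, and without control replicate 3 mt-Nd6 did (0.0404). Over all genes 27.9% increased without Rnmt cKO replicate 3, 25.9% in DESeq2, 12.1% with no filter and 24.4% without control replicate 3.

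Other genes that serve complex I were followed as well. Of 15 further assembly factors, 6 decreased and 3 increased in total RNA (28.0% and 26.3% of all genes), and 3 decreased and 3 increased in RPF (15.7% and 14.1% of all genes), so that the RPF counts were close to those of all genes. Tmem126b, which builds the membrane arm together with Ndufaf1, fell by 0.83 on the log2 scale (adjusted p = 0.000291) and its relative Tmem126a fell by 0.73 (adjusted p = 0.00198). Sfxn4 had the largest decrease of this list (-1.31 ± 0.28, adjusted p = 0.00498). Foxred1, a flavoprotein needed for assembly, rose by 0.62 (adjusted p = 9.46e-05), and its RPFs rose by 0.85 (adjusted p = 0.000709). RPFs of Nubpl, which delivers iron-sulfur clusters to complex I, rose by 0.93 (adjusted p = 0.00207) while its total RNA did not pass the threshold (0.18 ± 0.12).

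Among 13 tested genes of iron-sulfur cluster supply, 5 decreased (38.5%) and 2 increased (15.4%) in total RNA, beside 28.0% and 26.3% of all genes. In RPF 5 decreased and 3 increased, beside 15.7% and 14.1%, and in TE 1 decreased and 3 increased, beside 6.57% and 3.24%. Hscb, a co-chaperone of cluster transfer, fell by 1.50 on the log2 scale (adjusted p = 5.85e-05) and Lyrm4, the LYR partner of the desulfurase Nfs1, fell by 1.14 (adjusted p = 0.000166). The ferredoxin reductase Fdxr fell by 0.81 (adjusted p = 0.00028), and the chaperone Hspa9 rose by 0.63 (adjusted p = 7.09e-05). RPFs of Hspa9 had a log2 fold change of -0.032 and its TE fell by 0.66 (adjusted p = 0.000795). TE rose by 0.93 for Hscb (adjusted p = 0.00516), by 0.51 for Isca2 (0.00952) and by 0.47 for Bola3 (0.0243). In TE 0 genes of the list increased without Rnmt cKO replicate 1 and 1 without control replicate 1, beside 1.30% and 1.19% of all genes. With the replicate block 4 increased, beside 3.99% of all genes, Fdxr being added (adjusted p = 0.0379, and 0.103 without the block). The call of Glrx5, the other increase in total RNA (0.18, adjusted p = 0.0489), was lost in DESeq2 and 3 other settings and in 5 of the 6 fits without a replicate. That of Nfs1 (-0.18, adjusted p = 0.0398) was lost in DESeq2 and 3 other settings and in 5 of the 6 fits. In RPF 2 genes decreased without Rnmt cKO replicate 2 (15.4%, beside 11.3% of all genes) and 3 without control replicate 3 (23.1%, beside 12.7%).

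The transcription regulators of nuclear respiratory genes were called about as often as all genes, with 3 of 10 decreased and 3 increased in total RNA beside 28.0% and 26.3%. The nuclear receptor Esrra fell by 0.44 (adjusted p = 0.00322), and the coactivator relative Pprc1 rose by 0.70 (adjusted p = 0.0295). Gabpa, the DNA-binding part of GABP, rose by 0.33 (adjusted p = 0.000635), Nrf1 fell by 0.17 (adjusted p = 0.0429), and none of these 4 apart from Pprc1 passed the threshold in RPF. Gabpb2, a partner of Gabpa, was the third decrease (-0.26, adjusted p = 0.0448), and its call was lost without TMM (0.0912) and in 5 of the 6 fits without a replicate (0.0815 to 0.137). Only 1 regulator decreased without TMM and without control replicate 1, control replicate 2 or Rnmt cKO replicate 1. Over all genes 22.7 to 25.1% decreased in these fits. The call of Nrf1 was lost in DESeq2 (adjusted p = 0.126), without TMM, with no filter, with the replicate block and in 4 of the 6 fits without a replicate (0.114 to 0.204). That of Pprc1 in total RNA was lost with the replicate block (0.0582) and without control replicate 1 (0.104) or 2 (0.0819), and that in RPF with no filter and in 5 of the 6 fits (0.0515 to 0.0944).

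Among the nuclear-encoded subunits of complexes II to V, 17 of 38 decreased and 0 increased in total RNA, beside 28.0% and 26.3% of all genes, with a median log2 fold change of -0.19. At an unadjusted p under 0.05, 1 increased, in DESeq2 0 did, and 1 (Uqcrq) passed the threshold without TMM, with no filter and without replicate 3 of either genotype. In RPF 3 decreased and 5 increased (15.7% and 14.1% of all genes) with a median of 0.0015, beside 10 and 1 of the 35 subunits of complex I with a median of -0.084. In TE 0 decreased (1 at an unadjusted p under 0.05, 0 in DESeq2, and 1, Uqcrq, without control replicate 3) and 5 increased (13.2%, beside 3.24% of all genes) with a median of 0.16. The 5 increases in TE were 2 without TMM or with no filter and 7 in DESeq2. They were 2 without replicate 1 of either genotype, 1 without replicate 2 of either, 3 when control replicate 3 was left out and 8 when Rnmt cKO replicate 3 was. Over all genes 0.920 to 3.71% increased in TE in all these fits. The 5 increases in RPF were 3 with no filter and 3 without control replicate 2 or 3 or Rnmt cKO replicate 1 or 2. Over all genes 6.98 to 11.5% increased in those fits. The decreases in RPF were 5 with no filter and 2 without control replicate 1 or 3, where 7.61 to 12.7% of all genes decreased. The difference between complex I and the other complexes was not tested. The largest decrease there was that of Sdhb, the iron-sulfur subunit of complex II (-1.07 ± 0.066 in total RNA, adjusted p = 1.72e-05, and -0.70 in RPF, adjusted p = 0.000231).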

How the data were processed

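Libraries were made with the Illumina TruSeq Ribo Profile kit. The authors selected read 2, trimmed adapters with Cutadapt, removed ribosomal RNA and tRNA reads with Bowtie, aligned to mm10 (GRCm38) with STAR 2.5.2b and deposited whole-number counts of uniquely aligned reads per gene, without normalization. The authors also deposited a table of 10126 genes with normalized signal values per library, and with fold changes and p-values from edgeR and RiboDiff, which were not used. Counts of the reverse strand were taken, because up to a single factor per library they equal these signal values within 0.0001% for 100% of genes with a count.

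Genes had to exceed 1 CPM in 3 or more of 6 libraries, in total RNA or RPF, and were tested with edgeR 4.0.16 (TMM, quasi-likelihood F test, R 4.3.3) and p-values adjusted by Benjamini-Hochberg over all genes tested, with a threshold of 0.05. TE was the interaction of genotype and kind of library over 12 libraries, for genes that passed in both kinds, in place of RiboDiff. Standard errors of log2 fold changes were taken from the F statistic. Shares and ratios were compared by exact permutation tests over samples. Levels per kb used the length of 1 GENCODE vM21 transcript or coding sequence per gene. Of 49585 genes counted, 49326 were found in vM21, whereas the authors counted on vM12. Reads that aligned in several places (22.9 to 31.0% of reads) were not counted, and 18.7 to 23.6% of gene counts in total RNA were mitochondrial rRNA. Unmapped reads made up 7.48 to 33.6%. No replicate pair of a group agreed within sampling noise.

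The members, roles and lists were chosen with earlier results of these data known. The analysis leaves out 1 Nduf gene and 1 B cell marker, which are not reported here, from all counts, medians and shares of the members and markers. Values are given for the 6 core subunits, for up to 3 members with the largest increases and decreases past the threshold in each comparison, and for Rnmt. Replicate numbers paired the total RNA and RPF libraries of a genotype (correlation of deviations from the group mean over genes 0.11 to 0.37 for same numbers) but not control with Rnmt cKO. Alternatives were DESeq2 1.42.0, library size without TMM, other filters, both strands, the replicate block and leaving out each replicate. Scripts were tested on simulated data.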

Additional observations from a re-analysis of the deposited data

Results flagged for a closer look

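For 5 Nduf genes the change in RPF differed from the change in total RNA by the interaction test of edgeR (adjusted p under 0.05 over 10668 genes). These were 1 decrease and 4 increases among 44 genes, beside 6.57% and 3.24% of all genes, and 0 to 5 subunits increased when a replicate was left out. Ndufaf4 had a TE log2 fold change of -0.61, with a rise of 0.91 in total RNA and of 0.30 in RPF. The 4 subunits went the other way, with 0.50 for Ndufa6, 0.47 for Ndufb5, 0.42 for Ndufs3 and 0.40 for Ndufa10, and each of these was lower in total RNA in all 3 Rnmt cKO libraries. The cause of these differences was not tested.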

How the results depend on the processing

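The 20 decreased subunits in total RNA were 17 to 20 under the other filters, normalization, test, strand counts and replicate block. They were 15 to 23 when a replicate was left out. Over all genes 11.6 to 27.6% (lowest with no filter) and 22.7 to 27.9% decreased in these fits. The 10 decreased subunits in RPF were 7 to 10 and 6 to 8 in the same order. Over all genes 7.61 to 17.7% (lowest with no filter) and 11.3 to 13.6% decreased in RPF. Leaving out a replicate gave 0 to 1 increased subunits in total RNA, 0 to 2 in RPF and 0 to 5 in TE. It gave 0 to 2 decreased Ndufaf genes in total RNA, 0 to 1 in RPF and 0 to 1 increased ones in RPF. In these fits 20.2 to 27.9% of all genes increased in total RNA, 9.68 to 12.6% in RPF and 1.16 to 3.49% in TE. The replicate block gave 1 decreased Ndufaf gene in total RNA, where its numbers did not pair the genotypes, and 1 increased in TE, where it joined the total RNA and RPF libraries of a number, which deviated together. DESeq2 gave 0 increased Ndufaf genes in RPF and 1 in TE, no filter gave 0 in RPF, a minimum of 10 counts gave 1 in TE, and counts of both strands gave 0 increased subunits in RPF. The median RPF log2 fold change of the subunits was -0.059 without TMM, -0.12 with no filter and -0.078 to -0.062 when a replicate was left out. The RPF log2 fold change of Ndufs3 was -0.010 with no filter and -0.062 to 0.093 when a replicate was left out, and the TE log2 fold change of Ndufa7 was -0.060 to 0.082. Of 312 alternatives of 26 called values of named genes, 273 kept the call, 39 lost it and 0 changed direction. The cause of these shifts was not tested. The RPF libraries held 4123271 to 10661356 counts, and the standard error of the RPF change was highest for Ndufb4 among the subunits (0.33).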
